A study of Mus musculus with 15 samples.

Results

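The 7 mammalian sirtuins, Sirt1 to Sirt7, and Nampt, the enzyme that feeds the salvage route to their cosubstrate NAD, were followed in the skeletal muscle of mice by RNA sequencing. The members were the rows of the gene count table that carry these 8 symbols, out of 22798 gene symbols, and all 8 were among the 17975 genes that passed the filter on low counts. The 15 libraries fell into 3 groups by their labels. There were 3 libraries labelled CD47-KO, a label that names a knockout of the cell surface receptor CD47, 6 from exercised mice and 6 from sedentary wild-type mice. All were C57BL/6 mice of 12 months on a normal diet, and muscle was taken after an overnight fast, so every level below is a fasted level. The kind and length of the exercise, the genotype of the exercised mice, the activity of the CD47-KO mice, the construction of the knockout and the name of the muscle are not given in the sources used here. Nothing in the labels said that each library came from a separate animal, so the p-values reflect library-to-library spread, which may be technical.

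Sirtuins remove acetyl or other acyl groups from lysines and use up NAD as they do so, which ties their activity to the fed or fasted state of a cell. Sirt1, Sirt6 and Sirt7 are mainly nuclear, Sirt2 is mainly cytosolic, and Sirt3, Sirt4 and Sirt5 sit in mitochondria. In muscle, SIRT1 deacetylates the coactivator PGC-1α, SIRT3 is the main mitochondrial deacetylase, and NAMPT makes nicotinamide mononucleotide from the nicotinamide that sirtuins release.

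The transcripts of the 8 members differ widely in base composition. Fold changes in the CD47-KO comparisons followed that property across all genes, as given below, so a stretch of coding sequence is shown for 3 members. Each is the middle 90 bases of the coding sequence of the longest coding transcript in an annotation of GRCm38, 5′ to 3′, with G and C in capitals. Over the longest transcript of each gene, GC content was 40.3% for Nampt, 44.0% for Sirt1, 46.4% for Sirt3, 47.4% for Sirt5, 53.5% for Sirt4, 54.2% for Sirt2, 55.6% for Sirt7 and 58.4% for Sirt6. Of these middle stretches, that of Sirt1 had the fewest G and C among the 8 members, 34 of 90 bases, and that of Sirt6 had the most, 60 of 90. Nampt, lowest over the whole transcript, had 43 of 90.
Nampt: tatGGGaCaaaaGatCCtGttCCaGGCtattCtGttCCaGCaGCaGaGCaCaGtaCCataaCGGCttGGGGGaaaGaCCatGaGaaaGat
Sirt1: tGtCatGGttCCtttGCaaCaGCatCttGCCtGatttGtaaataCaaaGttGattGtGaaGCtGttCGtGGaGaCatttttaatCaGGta
Sirt6: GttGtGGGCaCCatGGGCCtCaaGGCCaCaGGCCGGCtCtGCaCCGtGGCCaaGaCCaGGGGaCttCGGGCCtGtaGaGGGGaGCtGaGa

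Libraries held 76005277 to 84364189 counts in the CD47-KO group, 54851831 to 77628546 in the exercise group and 50928458 to 70774311 in the sedentary group. Cd47 itself did not pass the test as lower in the libraries that carry its name, at log2 fold changes of -0.17 against exercise and -0.26 against sedentary: it had 11.9 ± 0.356 CPM in the CD47-KO libraries (SD, n = 3), 13.4 ± 1.81 CPM in the exercise libraries and 14.3 ± 1.77 CPM in the sedentary libraries (SD, n = 6 each). CPM are counts per 1000000 counts of the scaled library. The groups overlapped for Cd47, and whether the deletion leaves a counted part of the transcript is not known here, so all directions below refer to libraries by that label and not to a genotype checked here. Mitochondrial transcripts held 18.1 to 19.2% of counts of the CD47-KO libraries, 4.49 to 12.5% in exercise libraries and 4.77 to 18.2% in sedentary libraries. Summed muscle fibre markers, all 6 of them in the table, were abundant in every library, at 95750.5 to 134111 CPM in the CD47-KO group, 133424 to 236413 CPM in the exercise group and 113181 to 207106 CPM in the sedentary group. Of these 6 markers, Acta1 and Ckm passed as lower in both CD47-KO comparisons, at log2 fold changes of -0.98 and -0.92 against sedentary, and neither passed after the correction for GC content described below. The macrophage marker Mrc1 was higher against sedentary, with 4.50 CPM in CD47-KO and 1.40 CPM in sedentary libraries, and did not pass after the correction, while the other 4 of 5 macrophage markers did not pass in either fit. Of 5 hepatocyte markers, which summed to 0.128 to 0.229 CPM in CD47-KO, 0 to 10.7 CPM in exercise and 0.433 to 29.6 CPM in sedentary libraries, Alb passed as lower against sedentary, without the correction only. No marker of adipocytes, endothelium or neutrophils passed, and the part of these markers in the results below was not tested. In whole tissue, fewer cells of a type and less RNA per cell cannot be told apart.

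Sirt2 was the most abundant sirtuin in all 3 groups per length of transcript, and Sirt1 was the least abundant in the exercise and sedentary groups but not in the CD47-KO group. In the CD47-KO libraries, the level per kilobase of exon was 31.2 CPM for Nampt, 13.8 for Sirt2, 2.46 for Sirt1 and 2.21 for Sirt4, with the remaining 4 members between 0.960 and 1.18. In exercised muscle Nampt stood at 15.03 CPM per kilobase of exon, Sirt2 at 14.97, Sirt3 at 2.12, Sirt4 at 2.08 and Sirt1 lowest, at 0.543. In sedentary muscle, Sirt2 had 14.4 CPM per kilobase, Nampt 13.1, Sirt4 2.56, Sirt3 1.64, Sirt5 1.07, Sirt6 1.04, Sirt7 0.823 and Sirt1 0.700. Neighbours in the sedentary order overlapped between libraries, except Nampt and Sirt4. The same sedentary order held with the length of the longest transcript, which put Sirt2 at 34.3 CPM per kilobase and Sirt1 at 0.842. The orders of the other groups did not hold with that length. In CD47-KO libraries it put Sirt1 and Sirt4 at 2.96 and Sirt5 at 2.91, and in exercise libraries Sirt2 at 35.6 and Nampt at 16.8.

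The first comparison asked which members differ in muscle labelled CD47-KO against sedentary wild-type muscle. Sirt1 and Nampt were higher and none was lower at an adjusted p under 0.05, that is 2 of 8 members in all. Of all genes tested, 20.7% were called in either direction, 11.9% higher and 8.75% lower. The median log2 fold change of the 8 members was 0.02, beside -0.11 over all genes tested.

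Sirt1, the nuclear deacetylase of histones, p53, FOXO factors and PGC-1α, lies on the minus strand at chr10:63319005-63381704 of GRCm38. Its level was 12.7, 13.3 and 13.3 CPM in the CD47-KO libraries, from 996 to 1160 counts. It had 1.79, 1.96, 1.91, 3.94, 4.77 and 3.01 CPM in exercise libraries 1 to 6, from 98 to 373 counts. In sedentary libraries 1 to 6 it had 1.94, 2.65, 3.40, 5.55, 5.17 and 3.68 CPM, from 148 to 397 counts. All 3 CD47-KO libraries lay above every other library, the highest of which was sedentary 4. The level was 3.52-fold that of sedentary muscle, or 1.81 on the log2 scale (SE 0.34). The quasi-likelihood test of edgeR, adjusted after Benjamini and Hochberg over all genes tested, gave a p of 0.00144. Groups that do not overlap and stand higher in CD47-KO made up 15.7% of all genes tested, against 10.3% that stand lower.

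Nampt lies on the plus strand at chr12:32819545-32853349. Its level was 135, 146 and 193 CPM in the CD47-KO libraries, 62.4 to 89.1 CPM in the exercise libraries with a median of 74.5, and 46.5 to 83.4 CPM in the sedentary libraries with a median of 67.1. Here too the CD47-KO libraries lay above all 12 others. The level was 2.38-fold that of sedentary muscle, or 1.25 on the log2 scale (SE 0.19; adjusted p 0.000369 by edgeR). Adipocytes also express Nampt, and the summed CPM of 5 adipocyte markers was 190.1 to 270.0 in CD47-KO libraries, 93.3 to 180.3 in exercise libraries and 118 to 563 in sedentary libraries. Fabp4 made up most of this sum, at a mean of 205 CPM in CD47-KO, 138.6 in exercise and 195.7 in sedentary libraries. Adipoq averaged 2.31, 2.26 and 2.40 CPM in the same groups, and Plin1 1.12, 1.03 and 1.31 CPM. The sum is thus mainly a level of Fabp4 and does not measure adipocyte content. The part of adipocytes in the Nampt result was not tested.

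**Figure D1:**
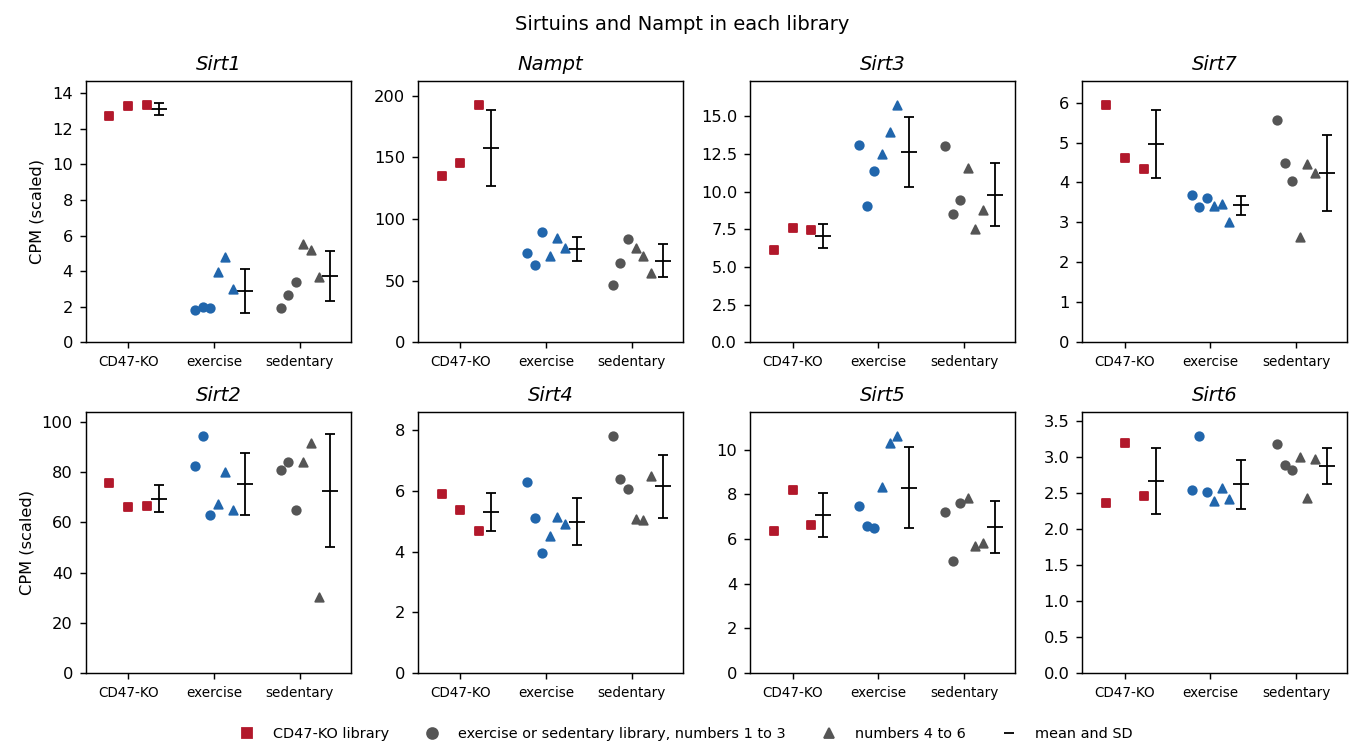
CPM (counts per 1000000 scaled counts, linear axes from 0) of each member in each library, with the mean and SD of each group beside the points. Symbols separate the exercise and sedentary libraries numbered 1 to 3 (circles) from those numbered 4 to 6 (triangles). The CD47-KO squares stand apart from every other library for Sirt1 (12.7 to 13.3 CPM) and Nampt (135 to 193 CPM), and the triangles lie above the circles of the same group for Sirt1.

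The other 6 members did not pass the test in CD47-KO against sedentary. Sirt3, the main mitochondrial deacetylase (minus strand, chr7:140863666-140882309), had 6.11, 7.60 and 7.47 CPM in CD47-KO libraries and 13.0, 8.50, 9.45, 11.6, 7.51 and 8.76 CPM in sedentary libraries 1 to 6. Only the second CD47-KO library reached into the sedentary range, and the log2 fold change was -0.48 (SE 0.21; adjusted p 0.128 by edgeR). Sirt7, a nuclear sirtuin tied to ribosomal DNA transcription (minus strand, chr11:120618372-120625240), had 5.95, 4.62 and 4.33 CPM in CD47-KO libraries and 5.56, 4.48, 4.03, 2.63, 4.46 and 4.24 CPM in sedentary libraries 1 to 6. These groups overlapped, with a log2 fold change of 0.23 (SE 0.22).

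Sirt2, the cytosolic deacetylase of tubulin, averaged 69.4 ± 5.53 CPM in CD47-KO libraries (SD, n = 3) and 72.7 ± 22.5 CPM in sedentary libraries (SD, n = 6), where sedentary 6 stood alone at 30.3 CPM. Sirt4, a mitochondrial sirtuin that inhibits glutamate dehydrogenase, averaged 5.31 ± 0.620 CPM in CD47-KO and 6.14 ± 1.04 CPM in sedentary libraries. Sirt5, which removes succinyl and malonyl groups in mitochondria, averaged 7.06 ± 0.998 CPM in CD47-KO and 6.53 ± 1.17 CPM in sedentary libraries. Sirt6, a chromatin deacetylase with a part in DNA repair and glycolysis, averaged 2.67 ± 0.456 CPM in CD47-KO and 2.88 ± 0.250 CPM in sedentary libraries. All 4 overlapped between the groups. Their log2 fold changes lay between -0.21 and 0.11, and the interval of 2 SE on each side ran from -0.60 to 0.47 for Sirt2, -0.61 to 0.19 for Sirt4, -0.31 to 0.54 for Sirt5 and -0.51 to 0.30 for Sirt6.

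**Figure D2:**
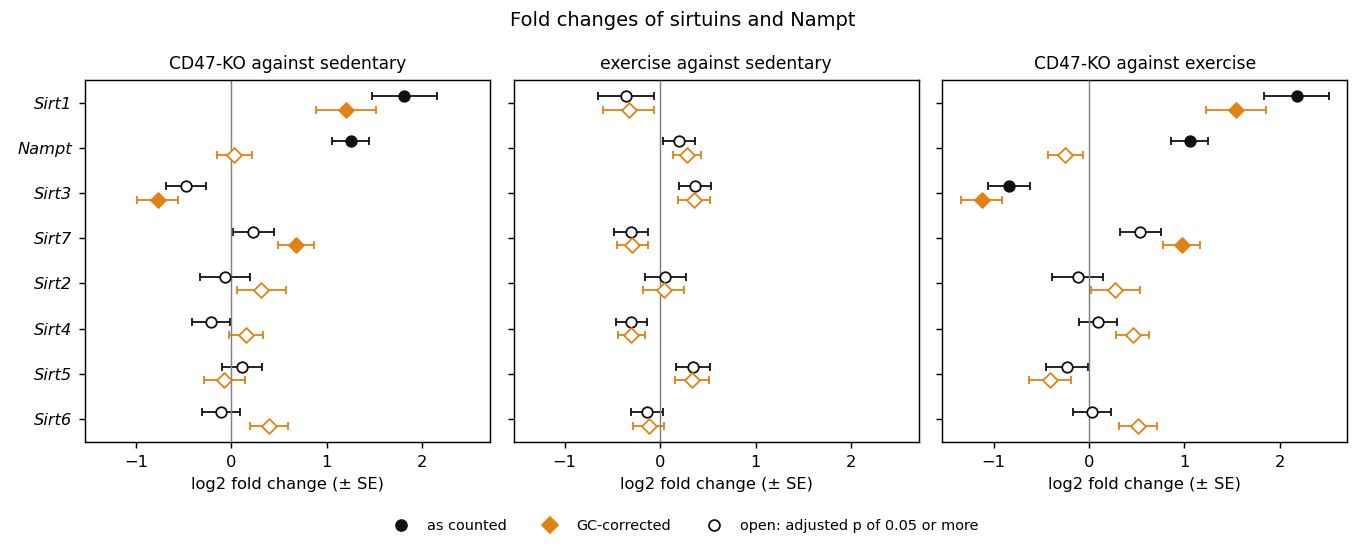
Log2 fold change with its SE for each member in the 3 comparisons, from the counts as deposited (black circles) and after the correction for GC content (orange diamonds). Filled symbols passed an adjusted p under 0.05. Sirt1 is filled in both fits of both CD47-KO comparisons, Nampt only without the correction, and no symbol is filled for exercise against sedentary.

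Fold changes of CD47-KO against sedentary followed the GC content of the transcript across all genes, and the members differ in GC content. The median log2 fold change was 1.30 over the tenth of genes with the lowest GC content and -0.60 over the tenth with the highest, beside -0.13 and -0.07 for exercise against sedentary. Nampt's 1.25 was close to the median of 1.15 among 962 genes within 1 percentage point of its GC content. Sirt1's 1.81 stood above the median of 0.55 among 1659 such genes, and above 93.9% of them. Of those genes, 447 were called higher, as were 426 of the 962 around Nampt. Sirt3's -0.48 lay below a median of 0.22 for genes of like GC content, of which 18.2% were lower still. Sirt7's 0.23 lay above a median of -0.54, and above 90.3% of its like genes.

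When this trend was fitted in each library and taken out, 8.95% of all genes tested were called in CD47-KO against sedentary, 4.31% of all genes tested higher and 4.64% lower. Among the members, Sirt1 and Sirt7 were then higher and Sirt3 lower, 3 of 8. With the replicate number as a block beside the correction Sirt1 alone was called, with adjusted p of 0.0620 for Sirt3 and 0.0519 for Sirt7 by edgeR. The CD47-KO libraries were not paired with the others and bear only numbers 1 to 3. That block thus sets them mainly against exercise and sedentary libraries 1 to 3. With the correction alone, Sirt1 kept a log2 fold change of 1.21 (SE 0.31; adjusted p 0.0242 by edgeR). Nampt had 0.03 (SE 0.18) and an adjusted p of 0.951, so its call rested on the uncorrected counts. Sirt3 had -0.77 (SE 0.21; adjusted p 0.0329 by edgeR) and Sirt7 0.68 (SE 0.19; adjusted p 0.0363 by edgeR). After the same correction Cd47 had a log2 fold change of -1.20, at an adjusted p of 0.00172 by edgeR. The GC trend runs with the CD47-KO label, so what belongs to the libraries and what to the genotype cannot be told apart.

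**Figure D3:**
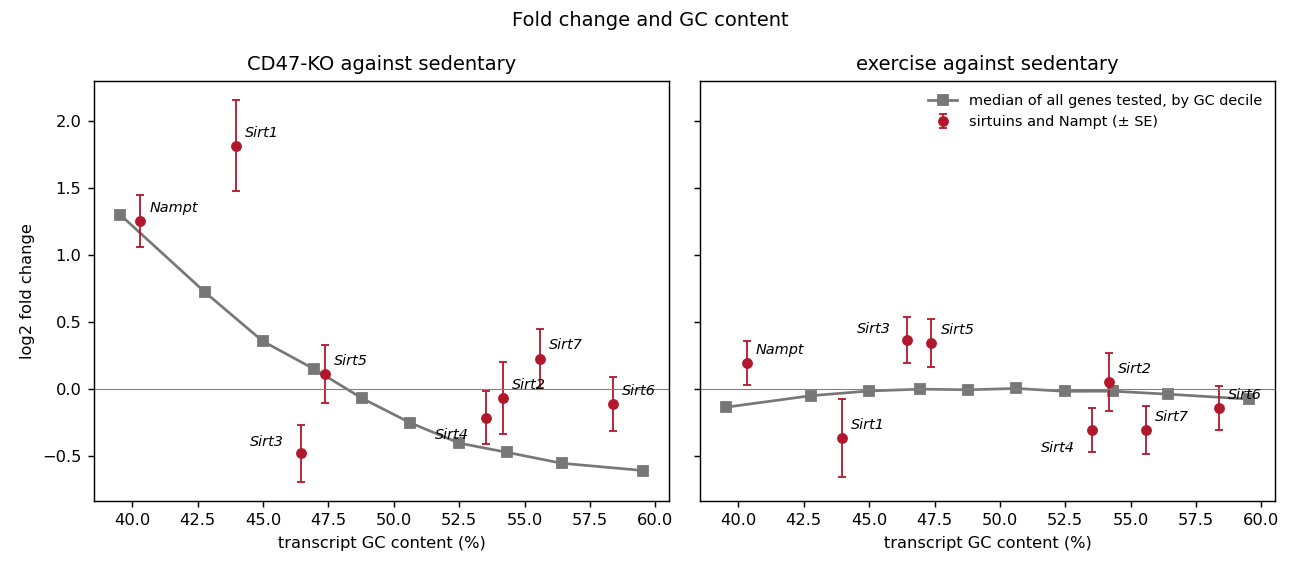
Log2 fold change against transcript GC content (%), for the members with their SE (red) and for the median of all genes tested in 10 bins of GC content (grey squares), in CD47-KO against sedentary and in exercise against sedentary. In the CD47-KO comparison Nampt lies on the grey line, Sirt1 and Sirt7 lie above it and Sirt3 below it, while the line for exercise is nearly flat.

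Against exercised muscle, CD47-KO muscle again had more Sirt1 and Nampt, and it had less Sirt3. This made 2 members higher and 1 lower of 8, where 20.6% of all genes tested were called, 12.2% higher and 8.34% lower. The CD47-KO libraries are the same 3 as before, so this comparison shares them with the first one. Sirt1 was 4.52-fold higher, a log2 fold change of 2.18 (SE 0.34; adjusted p 0.000308 by edgeR). Nampt was 2.08-fold higher, a log2 fold change of 1.05 (SE 0.19; adjusted p 0.00117 by edgeR).

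Sirt3 had 6.11 to 7.60 CPM in CD47-KO libraries and 13.1, 9.04, 11.4, 12.5, 14.0 and 15.8 CPM in exercise libraries 1 to 6. All 6 exercise libraries lay above all 3 CD47-KO libraries. Of all genes tested, 14.1% stood lower in CD47-KO without overlap and 17.5% higher. The log2 fold change was -0.84 (SE 0.22; adjusted p 0.0112 by edgeR). Without CD47-KO replicate 1, which has the lowest Sirt3, it was -0.69 with an adjusted p of 0.0926, so the call rested on that library. Exons of Sirt3 overlap those of Ric8a by 418 bases and those of Psmd13 by 342 bases on the opposite strand. The strand setting is not known from the labels or notes, so reads of these neighbours cannot be told apart from its own.

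Sirt7 also did not overlap between the groups. Its level was 5.95, 4.62 and 4.33 CPM in CD47-KO libraries and 3.69, 3.40, 3.60, 3.42, 3.45 and 3.01 CPM in exercise libraries 1 to 6. Its log2 fold change of 0.53 (SE 0.21) had an adjusted p of 0.0893 by edgeR. It passed the threshold in 2 of the 15 fits that left out a library, at 0.59 without sedentary replicate 4 and 0.62 without sedentary replicate 6 (adjusted p 0.0331 and 0.0407 by edgeR). It also passed with DESeq2, at 0.59, and with only the compared groups in the edgeR fit, at 0.62, and without sedentary libraries 1 and 6 together, at 0.57. Exons of Sirt7 share 124 bases with Mafg on the same strand, so that part of its count is uncertain.

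After the correction for GC content, 9.08% of all genes tested were called in CD47-KO against exercise, 4.51% higher and 4.57% lower, and 3 of the 8 members were among them. Sirt1 had a log2 fold change of 1.54 (adjusted p 0.00507 by edgeR), Sirt3 -1.13 (adjusted p 0.00355 by edgeR) and Sirt7 0.97 (adjusted p 0.00401 by edgeR). Nampt changed sign, to -0.25 with an adjusted p of 0.474 by edgeR. The genes within 1 percentage point of its GC content had a median of 1.31 in this comparison before the correction. Sirt2, Sirt4, Sirt5 and Sirt6 did not pass with or without it.

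Exercise against sedentary muscle asked what exercise does to the family in the same fasted state. No member passed, of a background of 0% of all genes called by edgeR, with 665 genes at an unadjusted p under 0.05 and 10 genes called by DESeq2, none of them a member. No member's groups were apart, which held for 0.1% of genes on the higher and 0.0612% on the lower side. The smallest unadjusted p-values belonged to the mitochondrial members. Sirt3 had 9.04 to 15.8 CPM with a median of 12.8 in exercise libraries and 7.51 to 13.0 CPM with a median of 9.10 in sedentary libraries, a log2 fold change of 0.36 (SE 0.17; p 0.0479, adjusted p 0.9998 by edgeR). Sirt5 had 6.49 to 10.6 CPM with a median of 7.89 in exercise and 4.997 to 7.82 CPM with a median of 6.51 in sedentary libraries. Its fold change on the log2 scale was 0.35 (SE 0.18), at an unadjusted p of 0.0666. Sirt4, the third mitochondrial member, stood at -0.30 on that scale (SE 0.16), at an unadjusted p of 0.0797.

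The nuclear and cytosolic members and Nampt had larger p-values. Sirt7 had 3.01 to 3.69 CPM in exercise and 2.63 to 5.56 CPM in sedentary libraries, a log2 fold change of -0.31 (SE 0.18). Sirt1 had a log2 fold change of -0.36 (SE 0.29), Sirt6 -0.14 (SE 0.17) and Sirt2 0.05 (SE 0.22). Nampt averaged 75.9 ± 9.86 CPM in exercise and 66.2 ± 13.5 CPM in sedentary libraries (SD, n = 6 each), a log2 fold change of 0.20 (SE 0.16). The interval of 2 SE reached from -0.13 to 0.53 for Nampt and from -0.94 to 0.22 for Sirt1. Set against the sedentary library of the same title number, Sirt1 was lower in the exercise library in 6 of 6 pairs and Sirt3 higher in 6 of 6. The exercise library was higher in 5 pairs for Sirt5, 4 for Nampt, 3 for Sirt2, 2 for Sirt6 and 1 each for Sirt4 and Sirt7. How many of all genes reach 6 of 6 was not counted. The descriptions number exercise libraries 4 to 6 differently from the titles, so these pairs rest on the titles alone. With the replicate number as a block, Sirt1 had a log2 fold change of -0.38 (SE 0.15; p 0.0242), Sirt4 -0.30 (SE 0.13; p 0.0467) and Sirt3 0.37 (SE 0.17; p 0.0571), each with an adjusted p of 0.826 by edgeR.

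The exercise and sedentary libraries numbered 1 to 3 stood apart from those numbered 4 to 6, and Sirt1 was the one member that went with this split. In exercised muscle it had 1.79 to 1.96 CPM in libraries 1 to 3 and 3.01 to 4.77 CPM in libraries 4 to 6. In sedentary muscle it had 1.94 to 3.40 CPM and 3.68 to 5.55 CPM in the same sets. Neither pair of sets overlapped, and the log2 fold change of numbers 1 to 3 over 4 to 6 was -0.94 (SE 0.19; adjusted p 0.00410 by edgeR). Of 17072 genes tested on these 12 libraries, 29.4% were called between the sets. The labels do not say what the numbers stand for.

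Within each set the CD47-KO results for Sirt1 and Nampt kept their direction and their call. Against sedentary libraries 1 to 3 alone Sirt1 had a log2 fold change of 2.38, and against libraries 4 to 6 alone 1.497. Nampt had 1.36 and 1.27. Against exercise, Sirt3 had -0.57 with an adjusted p of 0.0658 by edgeR for numbers 1 to 3 and -0.95 with an adjusted p of 0.00949 for numbers 4 to 6. For exercise against sedentary, Sirt3 had 0.09 within numbers 1 to 3 and 0.60 within 4 to 6, and Sirt5 0.04 and 0.59. In a test of that difference, chosen after seeing the data, Sirt3 had 0.48 (SE 0.33) and Sirt5 0.54 (SE 0.30) on the log2 scale, each with an adjusted p of 0.967 by edgeR. The number of genes called by that test was 0 of 17072.

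The genes around the sirtuins were read from 5 lists. Among the 10 tested genes of 13 that make NAD besides Nampt, none was higher and 1 was lower in CD47-KO against sedentary, near the 8.75% of all genes that were lower. The list's median log2 fold change was -0.55, beside -0.11 over all genes. That gene was Nmrk2, the nicotinamide riboside kinase enriched in muscle, which fell to 14.8 ± 2.39 CPM in CD47-KO libraries, against 74.1 ± 41.3 CPM in sedentary libraries. Its log2 fold change was -2.32 (SE 0.47; adjusted p 0.00249 by edgeR), and -2.29 after the correction for GC content (adjusted p 0.00790 by edgeR). Against exercise, where it averaged 90.8 ± 35.2 CPM, it was -2.61 at an adjusted p of 0.001099 by edgeR. Its sister kinase Nmrk1 passed in both comparisons only after the correction, at -1.05 and -1.09, and is named for that after its values were seen. Naprt, which uses nicotinic acid, had a log2 fold change of -0.78 against sedentary and did not pass. Kynu was not in the table, and Kmo and Haao were under the filter.

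Of 16 genes that use or carry NAD, 3 were higher and 1 lower in CD47-KO against sedentary, and 4 higher and 1 lower against exercise. Of all genes tested, 20.7% and 20.6% were called in these comparisons. The list's median log2 fold change was -0.21 against sedentary. The lower gene was Nadk, the cytosolic NAD kinase, with 9.92 ± 1.97 CPM in CD47-KO libraries, against 19.6 ± 3.92 CPM in sedentary libraries. Nadk2, its mitochondrial counterpart, went the other way, with 47.0 ± 2.95 CPM in CD47-KO and 14.4 ± 6.58 CPM in sedentary libraries. After the correction for GC content Nadk2 had a log2 fold change of 1.05 and Nadk -0.71 against sedentary, and both passed. The tankyrases Tnks and Tnks2, which attach ADP-ribose chains from NAD to proteins, had log2 fold changes of 1.08 and 1.09, and Tnks passed after the correction as well, while Tnks2 did not. Parp2, a DNA damage sensor that uses NAD, was the fourth gene higher against exercise, at 0.63, and is named for that after its value was seen. Against exercise the correction left 1 gene higher, Tnks, and 1 lower, Nadk, where 4.51% of all genes tested were higher and 4.57% lower. Parp2 had 0.47 and Nadk2 0.56 (adjusted p 0.185 and 0.245 by edgeR).

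Of 20 partners of the nuclear and cytosolic sirtuins, 6 were higher and 1 was lower in both CD47-KO comparisons, where 11.9% of all genes were higher and 8.75% lower against sedentary, and 12.2% and 8.34% against exercise. The list's median log2 fold change was 0.38 against sedentary. The leading 3 by p were genes of the circadian clock, in which SIRT1 is known to act. Clock had 32.3 ± 6.59 CPM in CD47-KO and 6.62 ± 3.82 CPM in sedentary libraries, a log2 fold change of 2.29 (adjusted p 0.000627 by edgeR). Its partner Arntl, which encodes BMAL1, had 44.1 ± 5.99 CPM in CD47-KO and 14.1 ± 8.11 CPM in sedentary libraries. Per2, a repressor that CLOCK and BMAL1 drive, had 5.26 ± 1.102 CPM in CD47-KO libraries and 21.3 ± 8.51 CPM in sedentary libraries, a log2 fold change of -2.02 (adjusted p 0.000448 by edgeR). The hour at which muscle was taken is not given in the sources used here, and its part in these values was not tested. Foxo3, a fasting factor that SIRT1 deacetylates, was higher at 1.13.

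After the correction for GC content, Clock had a log2 fold change of 1.22, Arntl 1.53, Foxo3 1.49 and Per2 -1.59 in CD47-KO against sedentary, and all 4 passed. Ppargc1a, which encodes PGC-1α, was the next gene of this list, with 58.2 ± 4.24 CPM in CD47-KO and 26.2 ± 8.82 CPM in sedentary libraries and a log2 fold change of 1.15. Prkaa1 and Prkaa2, the catalytic subunits of AMPK, had 1.25 and 1.36. These 3 passed only without the correction, after which they had 0.14, 0.05 and 0.22. They are named after their values were seen.

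The E-box CACGTG, the motif bound by CLOCK and BMAL1 among other factors, was looked for in the 250 bases before the start of each member in RefSeq's GRCm38.p6, and the word reads the same on both strands. The window of Sirt1 is shown because it held the motif, at 115 to 110 and at 43 to 38 bases before the start, in capitals. It lies on the minus strand at chr10:63339036-63339285. The span of Sirt1 given above came from a different annotation, reaches farther upstream and includes this window.
Sirt1: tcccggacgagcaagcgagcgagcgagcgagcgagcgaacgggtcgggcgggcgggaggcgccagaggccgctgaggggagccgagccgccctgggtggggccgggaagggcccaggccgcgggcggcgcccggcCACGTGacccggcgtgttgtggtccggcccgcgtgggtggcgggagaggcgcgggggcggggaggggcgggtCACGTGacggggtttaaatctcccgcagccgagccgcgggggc
No such word was in the windows of the other 7 members, nor in those of Clock, Arntl, Foxo3 and Ppargc1a. Per2 had no window in the set searched, so it was not examined. Of all 32851 windows of this length, 1978 held it, or 6.02%. A match of letters does not show that a factor binds there.

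Of 20 mitochondrial proteins that sirtuins are known to act on, 3 were higher and 2 lower in CD47-KO against sedentary. Against exercise, none was higher and 4 were lower. Of all genes tested, 11.9% were higher and 8.75% lower against sedentary, and 12.2% and 8.34% against exercise. The median log2 fold change was 0.03 against sedentary and -0.14 against exercise. Cps1 had 0 counts in all CD47-KO libraries and entered these medians at 3 counts per library against sedentary and was left out against exercise. Ndufa9, a complex I subunit and SIRT3 substrate, had 160.1 ± 16.4 CPM in CD47-KO, 287 ± 41.9 CPM in exercise and 242 ± 20.9 CPM in sedentary libraries, and it passed as lower in both comparisons with and without the correction. Mrpl10, a protein of the mitochondrial ribosome, passed as lower in both before the correction, at -0.52 against sedentary and -0.80 against exercise, and in neither after it. Opa1, which fuses inner membranes, Pdha1, a subunit of pyruvate dehydrogenase, and Acss1, the mitochondrial acetyl-CoA synthetase, were higher against sedentary, at 0.90, 0.93 and 0.94, with Acss1 named after its value was seen. After the correction Acss1 passed at 1.19 (adjusted p 0.0316 by edgeR), and Opa1 and Pdha1 did not, at 0.22 and 0.52. Got2 and Lonp1 were lower against exercise, at -0.93 and -0.54, and neither passed after the correction, at -0.53 and -0.08.

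The 11 zinc-dependent deacetylases, which use no NAD, served as the family to set beside the sirtuins. In CD47-KO against sedentary, 1 was higher and 2 were lower, with a median log2 fold change of -0.43, where 20.7% of all genes were called. Hdac2 was higher at 1.20, with Hdac10 at -0.59 and Hdac6 at -0.54. Against exercise, Hdac2 and Hdac9 were higher and Hdac4 lower. After the correction for GC content none of the 11 passed, where 8.95% of all genes were called against sedentary and 9.08% against exercise. No test was made between the lists.

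With exercise, none of the 5 lists had a gene that passed, and the list medians ran from 0.01 for NAD use to 0.30 for the mitochondrial substrates, beside -0.03 over all genes tested. In the last list Ppif, the mitochondrial permeability regulator cyclophilin D, had a log2 fold change of 0.56. Sdha of complex II had 0.49 and Dlat of pyruvate dehydrogenase 0.47. Cps1, next after Ppif by p, went the other way at -4.29, with 0.0127 CPM in exercise and 0.258 CPM in sedentary libraries. Unadjusted p ran from 0.0162 for Ppif to 0.0360 for Dlat, each with an adjusted p of 0.9998 by edgeR. Nmnat3, which makes NAD in mitochondria, had 0.44 and Nadk2 0.45. Afmid, next after Nmnat3 by p in the NAD synthesis list, had -0.95.

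**Figure D4:**
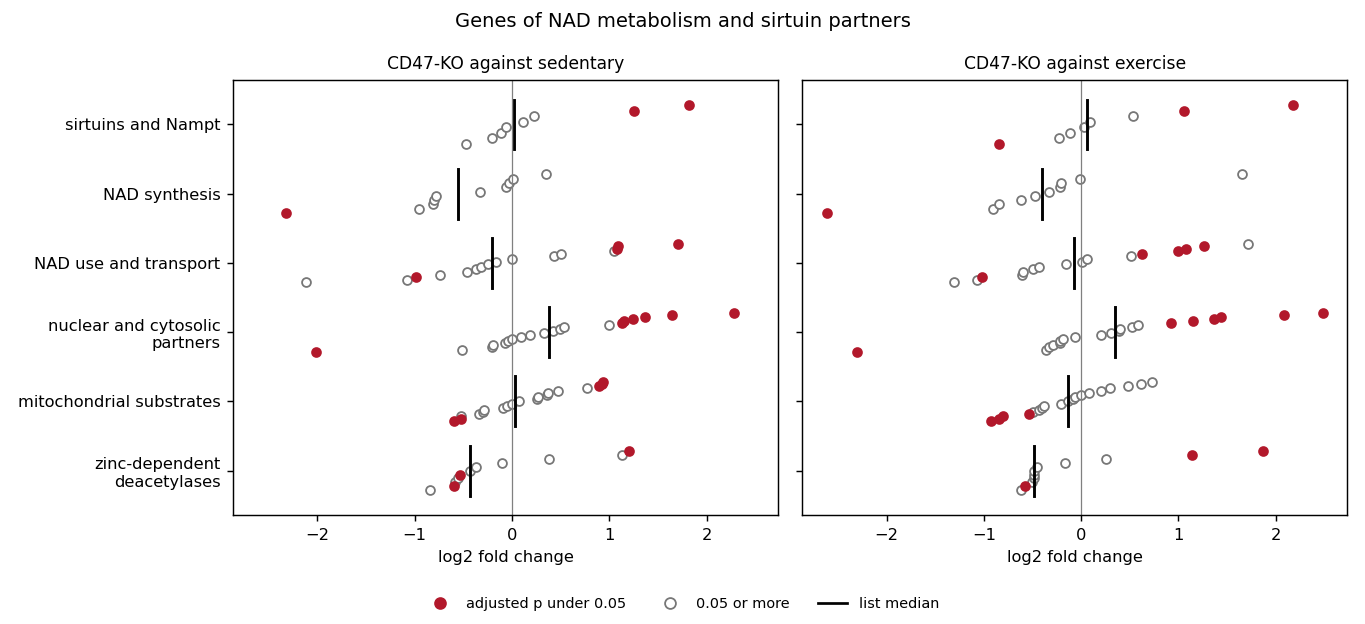
Log2 fold changes of the members and of 5 lists of related genes in CD47-KO against sedentary and CD47-KO against exercise. Each point is a gene (filled at an adjusted p under 0.05) and each bar the list's median. Cps1, with 0 counts in all CD47-KO libraries, is not drawn. The filled points farthest out are Nmrk2 (-2.32 and -2.61) and Per2 (-2.02 and -2.30) on the lower side and Clock (2.29 and 2.48) on the higher side.

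Over the 15 libraries the members did not move as 1 block. As a measure of likeness, each gene's log2 CPM was centred on its mean, and the root mean square difference between genes was taken, so that 0 is the same pattern. The closest pair of members was Sirt4 and Sirt6, at 0.220. Their own log2 SD over the libraries was 0.248 and 0.169, and genes that vary little come out close by this measure. The mitochondrial pair Sirt3 and Sirt5 stood at 0.288, and Sirt1 and Sirt3 were farthest apart, at 1.25. Among 9817 expressed genes, the nearest to Nampt were Caprin1 at 0.116 and Tomm70a at 0.137, with transcript GC contents of 42.0% and 40.7%. The nearest to Sirt3 were the mitochondrial phosphate carrier Slc25a3 at 0.140 and the short-chain acyl-CoA dehydrogenase Acads at 0.175. The nearest to Sirt1 were Srp54b at 0.238 and Rlim at 0.244, and Srp54b has near-identical copies, so its count is uncertain. All libraries and their GC trends are shared by these genes, and the values are a description.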

How the data were processed

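Gene counts were deposited by the authors as 1 table of 22798 gene symbols and 15 libraries, and 0 columns were left without a sample. The submitters' processing notes name the build GRCm38, HTSeq 0.6.1, HISAT2 2.0.1 and Trimmomatic 0.30. The strand setting is not given in the sources used here. Of the values from 1 to 15, those that were 4, 8 or 12 made up 32.1 to 33.6% in each CD47-KO library. They made up 43.6 to 50.2% in exercise libraries and 41.7 to 48.5% in sedentary libraries. The deposited counts may thus not be single reads, and precision from counting cannot be derived from them. All CD47-KO libraries lay below all others in this share, so it cannot be told apart from the CD47-KO label. Its part in the CD47-KO comparisons was not tested. No 2 libraries of a group were copies (lowest chi-square per degree of freedom 72.0).

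Counts were filtered with filterByExpr, scaled by TMM and tested by the quasi-likelihood method of edgeR 4.0.16 (R 4.3.3), with all 15 libraries in 1 robust fit. The Benjamini-Hochberg adjustment ran over all 17975 genes, with a threshold of 0.05, and the SE came from the fold change and its F statistic. CPM used the same scaled library sizes. The GC correction fitted a lowess curve (span 0.3) of each library's log2-cpm deviation on transcript GC content as an offset. Of the symbols, 22716 matched the annotation of GRCm38 once. The code was tested on simulated data. Alternatives were DESeq2 1.42.0, RLE factors, no filter on low counts, only the groups compared, the GC correction, a replicate block, sets of numbers, a fit without sedentary libraries 1 and 6 and leaving out each library. Same-numbered exercise and sedentary libraries correlated at 0.273 to 0.539 within group means in all 6 pairs, above a rule that every pair exceed 0.1. The numbers, which come from the titles, served as pairs there only in the replicate block and the counts of pairs. Other libraries of the same set of numbers (1 to 3 or 4 to 6) had a median of 0.366, so the correlation goes with the set as much as with the number, and the fit without a block stayed the main one. CD47-KO libraries were not paired with sedentary (-0.192 to 0.208) or exercise libraries (-0.0925 to 0.309).

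The members, the lists and the tests were chosen with earlier results of these data known. All 8 members were named, from each list up to 4 genes with the smallest p, and for members that passed the 2 genes of most similar pattern.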

Additional observations from a re-analysis of the deposited data

Results flagged for a closer look

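Sirt6 in exercise library 2 had 3.30 CPM, while the other 5 exercise libraries had 2.39 to 2.57 CPM, and this gap was large for a group of 6. It was the only one of 16 member and group combinations of 6 libraries to stand out, and chance alone gives such a gap in about 1 of 20 groups.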

How the results depend on the processing

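The calls of Sirt1 and Nampt in both CD47-KO comparisons kept their direction and their side of the threshold in all 15 fits that left out a library. Nampt lost its call with the GC correction, where its log2 fold change was 0.03 against sedentary and -0.25 against exercise, and -0.11 and -0.40 with the replicate block added. Genes called in CD47-KO against sedentary numbered 3719, and 1609 with the GC correction, 2461 with the GC correction and replicate block and 5588 with numbers 1 to 3 alone. Without each library in turn they numbered 2178 to 3881, with the fits lacking CD47-KO replicate 1, 2 or 3 at 2361, 2245 and 2178. Against exercise they numbered 3698, 1632 with the GC correction and 2292 to 4563 without each library, with 2292 and 2329 lacking CD47-KO replicate 2 or 3. For exercise against sedentary DESeq2 called 10 genes, edgeR 0. With GC correction and replicate block, 1 member (Sirt1) was called against sedentary, with Sirt3 and Sirt7 at adjusted p 0.0620 and 0.0519 by edgeR. The CD47-KO libraries were not paired with the others, so a block by number lacks a basis in their comparisons. The replicate block alone changed no member's call. Members that had not passed changed sign as follows. Against sedentary, the GC correction gave 0.31 for Sirt2, 0.15 for Sirt4, -0.074 for Sirt5 and 0.40 for Sirt6, the correction with replicate block 0.36 for Sirt2, 0.14 for Sirt4 and 0.41 for Sirt6, and numbers 4 to 6 alone 0.064 for Sirt2. Against exercise, Sirt6 had -0.040 with the replicate block, Sirt2 0.28 with the GC correction, 0.25 with the block added and 0.020 in numbers 4 to 6, and Sirt5 0.13 in numbers 1 to 3. For exercise against sedentary, Sirt2 had -0.11 without sedentary libraries 1 and 6. Ranges without each library that cross 0 were -0.15 to 0.047 (Sirt2), -0.054 to 0.24 (Sirt5) and -0.30 to 0.025 (Sirt6) against sedentary, -0.12 to 0.13 (Sirt2) for exercise, and -0.16 to 0.17 (Sirt6) against exercise. The longest transcript in place of the exon union moved the sedentary levels per kilobase to 34.3 for Sirt2, 3.06 for Sirt3, 3.42 for Sirt4, 2.69 for Sirt5, 1.52 for Sirt6 and 1.29 for Sirt7. Why these values moved was not tested.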
